A study of Mus musculus with 20 samples.

Results

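Fetal-like regenerative epithelium is a state of the mouse intestinal lining described after injury and in fetal-type cultures, in which crypt cells carry genes of the fetal gut. The 9 genes followed here are used as its markers, and they are 9 of the 54838 gene rows measured in every library: *Ly6a*, *Anxa1*, *Anxa2*, *Anxa3*, *Anxa8*, *Anxa10*, *S100a6*, *Clu* and *Krt19*. They were listed by name as known markers of the state, but with earlier results of these data known, as were all lists below. All 9 were found in the 12 libraries of sorted crypt cells and the 8 libraries of organoids, which are crypt cells grown in a gel as closed epithelial structures.

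In the adult crypt, stem cells at the base carry *Lgr5* and renew the lining. After damage that removes them, surviving cells switch on the surface protein Ly6a (also called Sca-1), annexins, S100 proteins and clusterin, together with targets of the Hippo pathway's effector YAP, before the usual stem cells return. *Mettl3* encodes the enzyme subunit that writes N6-methyladenosine (m6A), a methyl mark on messenger RNA, and it is the gene deleted in this study.

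Knockout crypt cells came from C57BL/6 mice with floxed *Mettl3* (*Mettl3* fl/fl) that carry both Villin-CreERT2 and the reporter allele Lgr5-EGFP-IRES-CreERT2. The Cre is driven in *Lgr5* cells and, through Villin, across the intestinal epithelium, so deletion was not restricted to stem cells. These mice received tamoxifen (20 mg/ml, 4 days), and cells were collected at day 3 (1 library of Lgr5-high and 1 of Lgr5-low cells), day 4 (2 libraries for each gate) and day 6 (2 libraries, with no gate in the labels). For day 6, the heading over part of the deposited values does mention Lgr5-low cells, but the labels were followed here. If the day 6 cells were Lgr5-low, their differences from Lgr5-high cells also hold a difference of gate. The references were WT Lgr5-high and WT Lgr5-low cells, 2 libraries each, also C57BL/6. They are labelled untreated, although the protocol names *Mettl3* fl/fl mice without Cre that also received tamoxifen. The age of the mice, the days' starting point and any pooling of animals are not given in the sources used here. Organoids derived from the Cre-carrying mice fell into 4 groups of 2 libraries: knockout with 4-OHT for 2 days plus retroviral *Ascl2*, *Klf9*, *Fosb* and *Purb* (AKFP), knockout with 4-OHT for 2 days plus *Ascl2*, *Klf9* and *Fosb* (AKF), knockout with 4-OHT for 2 days alone, and WT with ethanol for 2 days. Infected organoids were selected with puromycin. The titles of the knockout and WT organoids alone carry "m3-flag", whose meaning is not given. Knockout and WT organoids thus also differ in 4-OHT, and AKF and AKFP in virus and selection. Knockout and WT crypt cells also differ in tamoxifen by the labels, or in Cre by the protocol. These differences cannot be told apart from the genotype or the factors.

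Values are FPKM, which scale each gene's fragments by its length and by the library's depth, so levels of different genes can be compared. Depth, estimated roughly from the steps between values, was 14800000 to 25400000 fragments. FPKM summed to 763177 in day 6 library 1, against 456654 to 607817 in the other tissue libraries, and 8 Paneth cell genes took 23.3% of its FPKM, against 7.94% to 15.7% elsewhere in tissue. *Mettl3*, the deleted gene, had 3.54 and 3.10 FPKM at day 6, against 4.86 and 4.58 FPKM in WT Lgr5-high and 4.23 and 3.42 FPKM in WT Lgr5-low cells, and 3.62 and 3.47 FPKM in knockout organoids, against 3.23 and 3.56 FPKM in WT organoids. These gene totals also hold exons outside the deletion, whose position is not given, so they do not check the knockout labels, and every direction below rests on the labels. *Epcam*, an epithelial surface marker, was between 353 and 563 FPKM in all libraries, and 7 epithelial markers were all above 1 FPKM. The 17 immune markers summed to 8.12 to 36.9 FPKM in tissue, with 12 to 14 of them below 1 FPKM. The 15 stromal and endothelial markers summed to 2.81 to 27.7 FPKM in tissue, with 12 to 15 below 1 FPKM. In organoids the immune sum was 3.51 to 9.28 FPKM and the pan-leukocyte marker *Ptprc* was listed at 0 in all 8 libraries. In bulk RNA, fewer cells of a type and less RNA per cell cannot be told apart.

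*Ly6a* (chr15:74994877-74998031, minus strand, GRCm38), a GPI-anchored surface protein by which fetal-like cells are sorted, had the widest range of the 9 genes in crypt cells, 6.57 on the log2(FPKM + 1) scale. In Lgr5-high cells it had 0.55 and 0.29 FPKM in WT, 0.95 FPKM at day 3, and 6.79 and 20.95 FPKM at day 4. In Lgr5-low cells it had 1.41 and 1.60 FPKM in WT, 2.53 FPKM at day 3, and 11.51 and 48.46 FPKM at day 4. At day 6 it had 122.0 and 50.84 FPKM. Each knockout library thus stood above both WT libraries of its gate, and both day 6 libraries stood above all 10 others. Day 6 exceeded WT Lgr5-high by 5.82 ± 0.69 (log2 difference ± SE; limma, adjusted p = 0.00160) and WT Lgr5-low by 5.0 ± 0.69 (limma, adjusted p = 0.00398). At day 4 the differences were already 3.21 ± 0.69 in Lgr5-high and 3.31 ± 0.69 in Lgr5-low cells, but the 2 libraries of each group lay far apart and neither passed the threshold of 0.05 (limma, adjusted p = 0.0699 and 0.0906).

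*S100a6* (chr3:90612882-90624181, plus strand) encodes a small calcium-binding protein with EF hands. It had 2.40 and 2.88 FPKM in WT Lgr5-high cells, 7.50 FPKM at day 3, and 13.49 and 19.37 FPKM at day 4. In Lgr5-low cells it had 10.02 and 7.30 FPKM in WT, 29.61 FPKM at day 3, and 17.62 and 36.77 FPKM at day 4. With 167.99 and 65.15 FPKM at day 6, it was higher there than in every other tissue library. Day 6 exceeded WT Lgr5-high by 4.86 ± 0.46 (limma, adjusted p = 0.000668) and WT Lgr5-low by 3.47 ± 0.46 (limma, adjusted p = 0.00354). The day 4 differences, 2.24 ± 0.46 in Lgr5-high and 1.47 ± 0.46 in Lgr5-low cells, did not pass (limma, adjusted p = 0.0638 and 0.221).

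**Figure D1:**
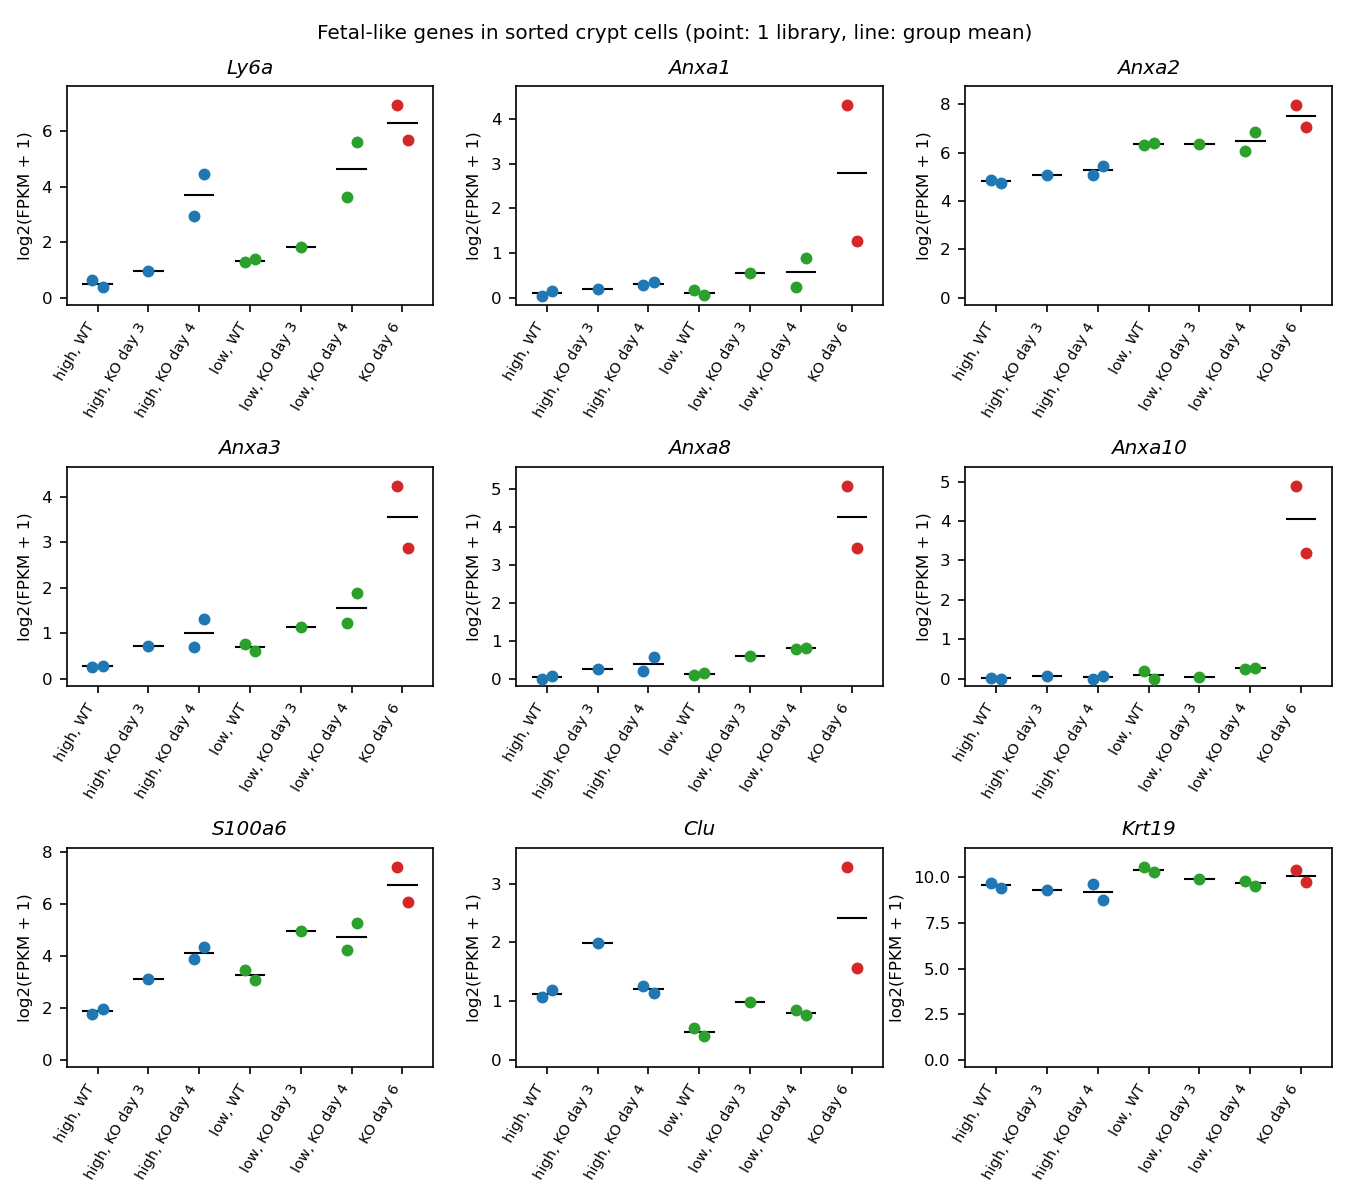
The 9 genes in the 12 libraries of sorted crypt cells, as log2(FPKM + 1) on the vertical axis, with 1 point for each library and a line at the group mean. Blue marks Lgr5-high cells and green Lgr5-low cells, each in the order WT, day 3, day 4, and red marks day 6. *Anxa8* and *Anxa10* stay below 1 FPKM in all libraries but those of day 6, *Ly6a* is above its WT libraries at day 4 in both gates, and *Krt19* stays between 430 and 1503 FPKM throughout.

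The 5 annexins bind phospholipid membranes when calcium is present. They started from very different levels and did not all move at the same time. *Anxa8* and *Anxa10* were below 1 FPKM in all 10 libraries before day 6: *Anxa8* between 0 and 0.76 FPKM and *Anxa10* between 0 and 0.22 FPKM. At day 6 *Anxa8* had 32.43 and 9.89 FPKM and *Anxa10*, an annexin of the gastric lining, had 28.45 and 8.19 FPKM. *Anxa8* exceeded WT Lgr5-low by 4.14 ± 0.43 (limma, adjusted p = 0.00195) and *Anxa10* by 3.94 ± 0.44 (limma, adjusted p = 0.00218). Over day 4 Lgr5-low cells the day 6 differences were 3.45 ± 0.43 and 3.78 ± 0.44 (limma, adjusted p = 0.0493 and 0.0433), and both calls were lost in 6 of 10 alternatives. Both genes reached 1 FPKM only at day 6, so that a difference from every other group was built in.

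*Anxa3* was 0.20 and 0.22 FPKM in WT Lgr5-high, 0.65 FPKM at day 3, and 0.61 and 1.49 FPKM at day 4. It was 0.71 and 0.53 FPKM in WT Lgr5-low, 1.21 FPKM at day 3, and 1.34 and 2.67 FPKM at day 4, and 17.77 and 6.29 FPKM at day 6. Day 6 exceeded WT Lgr5-low by 2.86 ± 0.43 (limma, adjusted p = 0.00535). *Anxa1*, which is induced by glucocorticoids and restrains inflammation, was uneven at day 6: it had 18.75 and 1.40 FPKM at day 6, against at most 0.86 FPKM in the other 10 libraries. It passed against WT Lgr5-high (2.68 ± 0.76; limma, adjusted p = 0.0375) and, without day 6 library 1, the difference was 1.16 and no longer passed (limma, adjusted p = 0.0531). The call was also lost without either WT Lgr5-high library, without the filter on low values and when the fit held no other group. Against WT Lgr5-low it did not pass (2.68 ± 0.76; limma, adjusted p = 0.0563).

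*Anxa2*, which forms a complex with S100a10 at the plasma membrane, was abundant in all groups. It had 249.45 and 132.25 FPKM at day 6, against 28.43 and 25.93 FPKM in WT Lgr5-high and 79.49 and 84.19 FPKM in WT Lgr5-low cells. Day 6 exceeded WT Lgr5-high by 2.70 ± 0.34 (limma, adjusted p = 0.00199), but its excess of 1.14 ± 0.34 over WT Lgr5-low did not pass (limma, adjusted p = 0.0661). The annexins therefore include genes that were near 0 and appeared at day 6, and *Anxa2*, which was already high in WT.

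Promoters of 4 annexins are shown because each was higher in both day 6 libraries than in all other tissue libraries, from different WT levels. *Anxa1* was at only 1.40 FPKM in day 6 library 2. Neither *Anxa1* nor *Anxa2* passed against WT Lgr5-low cells. Each line gives 250 bases before and 50 after the gene's start from RefSeq on GRCm38.p6, the build of the files (mm10), read 5′ to 3′ on the gene's strand. Capitals mark matches to the AP-1 letters TGANTCA or, on either strand, the TEAD letters GGAATG.
Anxa10, chr8:62123144-62123443, - strand: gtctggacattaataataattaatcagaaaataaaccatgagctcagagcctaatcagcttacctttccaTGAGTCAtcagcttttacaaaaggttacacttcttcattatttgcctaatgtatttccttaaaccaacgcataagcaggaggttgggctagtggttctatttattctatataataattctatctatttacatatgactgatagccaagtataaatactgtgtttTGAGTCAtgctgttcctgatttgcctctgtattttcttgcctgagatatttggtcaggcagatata
Anxa2, chr9:69453433-69453732, + strand: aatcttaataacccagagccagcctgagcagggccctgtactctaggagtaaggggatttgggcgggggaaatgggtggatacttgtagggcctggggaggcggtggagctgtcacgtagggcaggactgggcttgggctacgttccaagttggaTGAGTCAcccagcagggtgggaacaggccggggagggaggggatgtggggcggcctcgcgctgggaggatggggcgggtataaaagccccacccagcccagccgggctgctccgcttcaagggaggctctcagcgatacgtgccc
Anxa1, chr19:20390622-20390921, - strand: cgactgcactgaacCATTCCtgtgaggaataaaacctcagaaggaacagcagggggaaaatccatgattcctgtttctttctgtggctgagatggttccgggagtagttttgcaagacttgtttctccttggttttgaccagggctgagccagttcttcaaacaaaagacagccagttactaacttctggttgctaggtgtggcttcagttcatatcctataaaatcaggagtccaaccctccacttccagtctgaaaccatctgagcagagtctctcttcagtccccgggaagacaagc
Anxa8, chr14:34085729-34086028, + strand: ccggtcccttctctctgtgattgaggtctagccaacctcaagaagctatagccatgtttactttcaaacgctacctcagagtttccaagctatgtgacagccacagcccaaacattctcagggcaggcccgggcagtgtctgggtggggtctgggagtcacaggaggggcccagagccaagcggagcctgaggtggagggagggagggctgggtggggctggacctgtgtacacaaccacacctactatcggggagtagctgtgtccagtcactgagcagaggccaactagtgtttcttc
The AP-1 letters stand 180 and 16 bases before the start of *Anxa10* and 95 bases before that of *Anxa2*. The TEAD letters stand 236 bases before the start of *Anxa1*, on the opposite strand. The *Anxa8* window, and that of *S100a6*, held neither, and none of the 5 windows held TTCNNNGAA, the letters of the interferon-gamma site GAS. Of the 32851 promoter windows in the table, 7.81% held the AP-1 letters, 14.7% the TEAD letters and 8.30% the GAS letters, and these matches describe letters only. The table had windows for 5 of the 9 genes.

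*Clu* (chr14:65968483-65981547, plus strand) encodes clusterin, a secreted chaperone that marks the cells which rebuild crypts after irradiation in mice. It had 8.73 and 1.95 FPKM at day 6, against 1.097 and 1.27 FPKM in WT Lgr5-high and 0.45 and 0.32 FPKM in WT Lgr5-low cells. It was the one gene of the 9 whose mean was higher in WT Lgr5-high than in WT Lgr5-low cells. Day 6 passed against WT Lgr5-low (1.95 ± 0.45; limma, adjusted p = 0.0267) but not against WT Lgr5-high (1.3 ± 0.45; limma, adjusted p = 0.0691). The call over WT Lgr5-low was lost without either WT Lgr5-low library. Without day 6 library 1 the same 2 differences were 1.09 (limma, adjusted p = 0.0447) and 0.43 (limma, adjusted p = 0.258). The day 3 Lgr5-high library, with 2.99 FPKM, was above both day 4 libraries of that gate, which had 1.39 and 1.21 FPKM.

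*Krt19* (chr11:100140810-100148665, minus strand), a keratin of simple epithelia present in ordinary crypts, was abundant in every tissue library. It had 1379 and 853 FPKM at day 6, against 828 and 683 FPKM in WT Lgr5-high and 1503 and 1263 FPKM in WT Lgr5-low cells. At day 4 it had 790 and 430 FPKM in Lgr5-high and 903 and 742 FPKM in Lgr5-low cells. No *Krt19* difference in tissue passed the test. The largest between knockout and WT, in Lgr5-low cells at day 4, was -0.75 ± 0.36 (limma, adjusted p = 0.412).

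Counting the 9 genes, 7 were higher at day 6 than in WT Lgr5-high cells, where 10.1% of the 12899 genes tested were called higher and 11.9% lower. Against WT Lgr5-low cells 6 were higher, where 6.22% of genes were called higher and 5.25% lower. None was lower in either. *Anxa1*, *Anxa8* and *Anxa10* reached the 1 FPKM needed for testing only in the day 6 libraries, so a difference there was built in. Of the other 6 genes, 4 were higher than WT Lgr5-high cells: *Ly6a*, *S100a6*, *Anxa2* and *Anxa3*. A different set of 4 was higher than WT Lgr5-low cells: *Ly6a*, *S100a6*, *Anxa3* and *Clu*. *Anxa3* reached 1 FPKM in knockout libraries only and in no WT library, so it too entered the test through knockout groups. Both day 6 libraries lay above both WT Lgr5-low libraries for 8 of the 9 genes, all but *Krt19*, as they did for 26.1% of all genes tested. Library 1 was the higher of the day 6 pair for all 9, by 1.62 times for *Krt19* to 13.4 times for *Anxa1*. Without it, 6 of the 9 genes were higher than WT Lgr5-high and 6 than WT Lgr5-low.

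At day 4 none of the 9 genes passed in Lgr5-high cells, where 0.729% of genes were called higher and 0.326% lower, nor in Lgr5-low cells, where 0.279% were higher and 0.194% lower. In each gate 2 of the 9, *Ly6a* and *S100a6*, had an unadjusted limma p under 0.05, as had 16.9% of all genes in Lgr5-high and 13.7% in Lgr5-low cells, so 2 of 9 is near the background. Library 2 had the higher value in 7 of the 9 genes in both gates. The day 4 change did not differ detectably between gates for any of the 9 (limma interaction, adjusted p of 0.963 or more), where 0.0155% of genes were called. Day 3 had 1 library in each gate and no test. There 8 of the 9 genes were above their WT mean in Lgr5-high and 6 in Lgr5-low cells. The share of all genes above it was not determined, so these counts are not read as a change of the 9. In Lgr5-high cells *Anxa1*, *Anxa8* and *Anxa10* were at 0.14, 0.20 and 0.052 FPKM, with differences of 0.084, 0.23 and 0.061 on the log2 scale. *S100a6* was furthest above its WT mean, by 1.23 in Lgr5-high and 1.68 in Lgr5-low cells.

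Day 6 was also set against day 4. Of the 6 genes that did not enter the test through day 6 alone, 3 were higher at day 6 than in day 4 Lgr5-high cells, where 1.98% of genes were called higher and 1.23% lower: *S100a6* (2.62 ± 0.46), *Anxa3* (2.54 ± 0.43) and *Anxa2* (2.24 ± 0.34; limma, adjusted p = 0.0289, 0.0267 and 0.0226). *Anxa8* and *Anxa10*, which entered through day 6, were called as well. Without day 6 library 1, *Anxa8* and *Anxa10* were still called, and without day 4 Lgr5-high library 1 a single gene of the 9 was called. Over day 4 Lgr5-low cells none of those 6 was called and *Anxa8* and *Anxa10* were, where 0.0543% of genes were called higher and 0% lower. Neither was called there with a pseudocount of 0.1 or without either day 4 Lgr5-low library, and 6 of the 9 were called without day 6 library 2. *Ly6a* exceeded day 4 Lgr5-high by 2.61 ± 0.69 and day 4 Lgr5-low by 1.68 ± 0.69, and neither passed (limma, adjusted p = 0.0738 and 0.551).

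**Figure D2:**
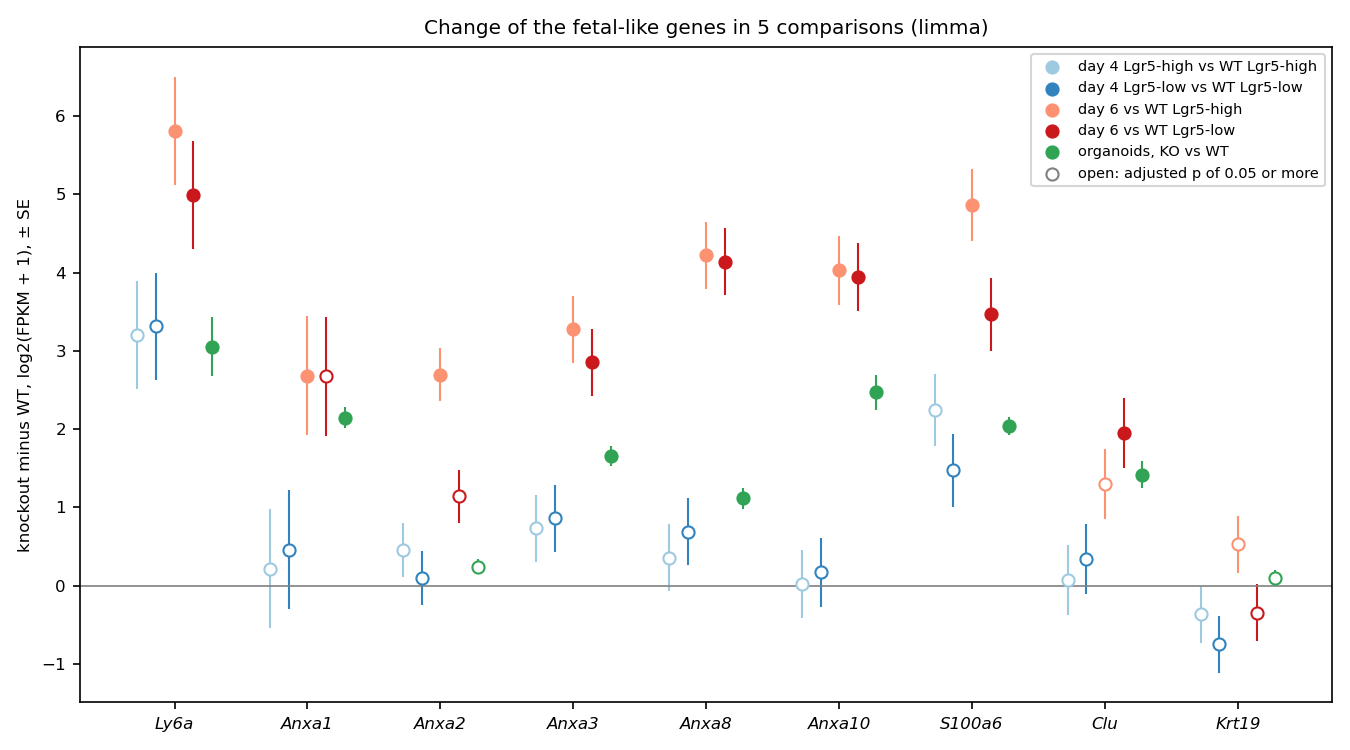
Differences in log2(FPKM + 1) ± SE for each of the 9 genes in 5 comparisons: day 4 over WT in each gate (blue), day 6 over each WT gate (red) and knockout over WT organoids (green). Filled points passed limma's adjusted p of 0.05. Only red and green points are filled, *Ly6a* is above 3 in all 5 comparisons, and *Krt19* has no filled point.

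The 2 gates were also compared without deletion. In WT Lgr5-high against WT Lgr5-low cells, the log2 difference was -1.56 ± 0.34 for *Anxa2*, -1.40 ± 0.46 for *S100a6* and -0.87 ± 0.36 for *Krt19*. None of the 9 passed (limma, adjusted p = 0.0676 for *Anxa2*, 0.217 for *S100a6* and 0.334 for *Krt19*), although these 3 had an unadjusted p under 0.05, as had 13.6% of all genes, and 0.372% of genes were called higher and 0.83% lower. The 10 enterocyte markers summed to 3562 and 3837 FPKM at day 6, against 291 and 367 FPKM in WT Lgr5-high and 1935 and 3936 FPKM in WT Lgr5-low cells. *Lgr5* was 0.34 and 1.27 FPKM at day 6, against 10.1 and 10.4 FPKM in WT Lgr5-high and 0.71 and 0.97 FPKM in WT Lgr5-low cells. The Lgr5-low cells are thus the closer reference for day 6 in these markers. The part of cell type in the day 6 differences was not tested. Nor was the part of the gate in those from WT and day 4 Lgr5-high cells.

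Across the 12 tissue libraries the 8 genes other than *Krt19* correlated positively with each other, to differing degrees. The 28 Pearson correlations between them, of log2(FPKM + 1), ran between 0.338 and 0.989 with a median of 0.801, and the 8 with *Krt19* between 0.0105 and 0.586. These describe libraries that share groups and processing. *Anxa8* and *Anxa10* were the closest pair at 0.989. Both, like *Anxa1*, reached 1 FPKM only at day 6, so their correlations rest largely on the day 6 libraries. The lowest of the 28, 0.338 for *Anxa2* with *Clu*, was below the 0.586 of *Anxa2* with *Krt19*. The genes most like *Ly6a* over the 12 libraries, among those that passed the filter, were *Slc25a22* (r = 0.983), *Smim3* (r = 0.983) and *Cbx3-ps8* (r = 0.979). Those most like *Clu* were *Tnf* (r = 0.926), *Emp3* (r = 0.922) and *Rin3* (r = 0.922).

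Knockout organoids were then set against WT organoids. *Ly6a* had 53.94 and 112.67 FPKM in knockout organoids, against 8.81 and 8.25 FPKM in WT organoids, a difference of 3.05 ± 0.38 (limma, adjusted p = 0.00215). *Anxa10* had 15.58 and 20.17 FPKM, against 2.71 and 2.08 FPKM in WT organoids (2.47 ± 0.22; limma, adjusted p = 0.000730). *Anxa1* had 10.28 and 11.45 FPKM, against 1.71 and 1.65 FPKM in WT organoids (2.15 ± 0.13; limma, adjusted p = 0.000373). Both knockout libraries lay above both WT libraries for all 9 genes, as they did for 36.6% of all genes tested.

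*S100a6* had 52.36 and 52.39 FPKM in knockout organoids, against 12.91 and 11.09 FPKM in WT organoids (2.04 ± 0.12; limma, adjusted p = 0.000373). *Anxa3* had 17.63 and 15.72 FPKM, against 4.53 and 4.69 FPKM in WT organoids (1.65 ± 0.12; limma, adjusted p = 0.000499). *Clu* had 4.73 and 6.00 FPKM, against 1.25 and 1.49 FPKM in WT organoids (1.42 ± 0.17; limma, adjusted p = 0.00189). *Anxa8* stayed low, with 1.35 and 1.34 FPKM in knockout organoids against 0.15 and 0.02 FPKM in WT organoids (1.11 ± 0.13; limma, adjusted p = 0.00189).

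In all, 7 of the 9 genes were higher in knockout organoids and none lower, where 16.7% of 12657 genes were called higher and 11.5% lower. *Anxa8* passed the expression filter only through the groups labelled knockout, and of the other 8 genes 6 were higher. The exceptions were the genes already abundant in WT organoids. *Anxa2* had 128.6 and 132.7 FPKM in knockout organoids, against 113.7 and 107.4 FPKM in WT organoids (0.24 ± 0.10; limma, adjusted p = 0.106). *Krt19* had 814 and 797 FPKM, against 780 and 728 FPKM in WT organoids (0.10 ± 0.11; limma, adjusted p = 0.538), a direction that turned to -0.0086 when all libraries were scaled to equal FPKM sums. The tissue and organoid tables were fitted apart, so a difference in size between day 6 tissue and organoids was not tested.

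**Figure D3:**
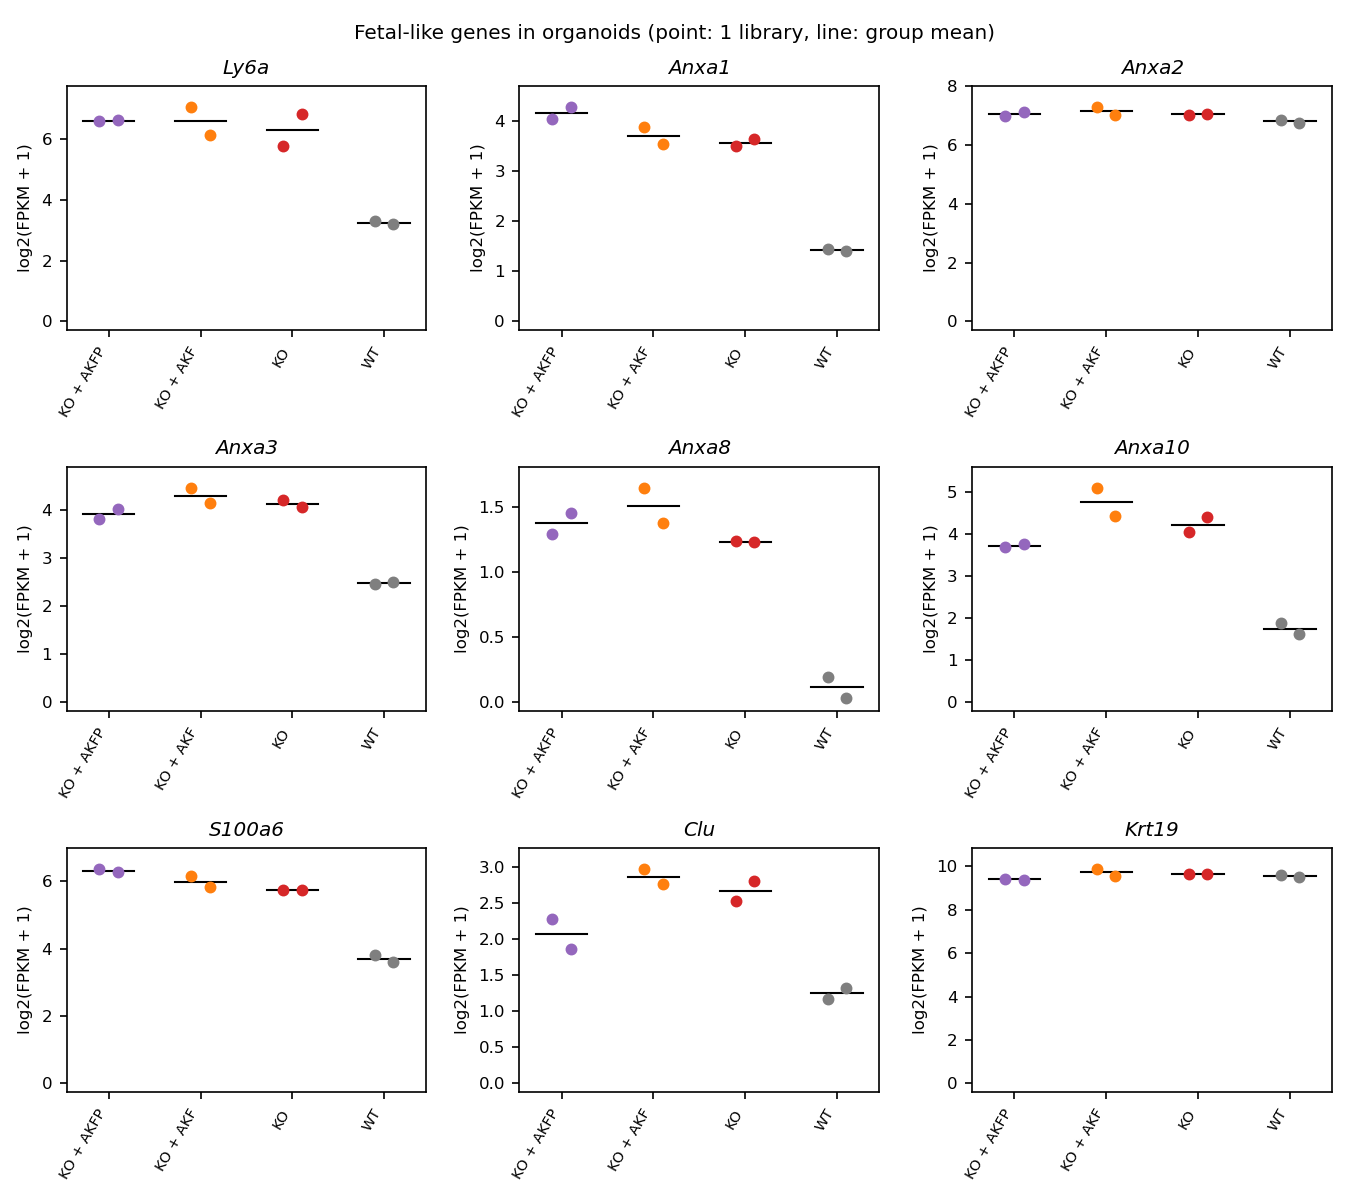
The 9 genes in the 8 organoid libraries as log2(FPKM + 1), with 1 point for each library and a line at the group mean, in the order knockout with AKFP, knockout with AKF, knockout and WT. For 7 genes the 3 groups labelled knockout lie well above WT, with *Ly6a* between 53.94 and 130.12 FPKM against 8.81 and 8.25 FPKM in WT organoids. *Anxa2* and *Krt19* hardly differ between groups.

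AKF and AKFP organoids set the 9 genes beside added transcription factors. In AKF organoids *Ascl2* had 36.8 and 38.6 FPKM, against 12.4 and 11.99 FPKM in knockout organoids, whereas *Fosb* had 25.8 and 26.7 FPKM, against 38.2 and 25.4 FPKM in knockout organoids. None of the 9 genes passed between AKF and knockout organoids (limma, adjusted p of 1 for each), where 0.0395% of genes were called higher and 0.0079% lower. *Anxa10* alone had an unadjusted p under 0.05, as had 4.6% of all genes, with 32.96 and 20.65 FPKM in AKF organoids against 15.58 and 20.17 FPKM in knockout organoids. *Ly6a* had 130.12 and 69.01 FPKM in AKF organoids, against 53.94 and 112.67 FPKM in knockout organoids, and the pairs overlapped. AKF library 1 was the higher of its pair for all 9 genes.

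In AKFP organoids 3 of the 9 genes differed from knockout organoids. Against knockout organoids, *Anxa1* was higher by 0.59 ± 0.13 (15.54 and 18.31 FPKM in AKFP organoids against 10.28 and 11.45 FPKM; limma, adjusted p = 0.0210). *S100a6* was higher by 0.57 ± 0.12 (80.26 and 76.59 FPKM against 52.36 and 52.39 FPKM; limma, adjusted p = 0.0169). *Clu* was lower, by -0.60 ± 0.17 (3.83 and 2.62 FPKM against 4.73 and 6.00 FPKM; limma, adjusted p = 0.0399), a call lost in 7 of 10 alternatives, equal FPKM sums among them. Of all genes 13.2% were called higher and 13.2% lower, so 2 of 9 higher and 1 of 9 lower is near the background. None of the 3 was called without either knockout library or without AKFP library 2.

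Against AKF organoids, *Anxa10* was lower by -1.04 ± 0.22 (11.86 and 12.55 FPKM in AKFP organoids against 32.96 and 20.65 FPKM; limma, adjusted p = 0.0180) and *Clu* by -0.80 ± 0.17 (limma, adjusted p = 0.0176), while *Anxa1* was higher by 0.45 ± 0.13 (limma, adjusted p = 0.0474), a call lost in 8 of 10 alternatives. Here 12.8% of genes were called higher and 12.7% lower, so these counts too are near the background. Against WT organoids, 7 of the 9 genes were higher in AKFP organoids, or 6 of the 8 without *Anxa8*, where 24.6% of genes were called higher and 18.8% lower, with *Ly6a* up by 3.35 ± 0.38 and *Clu* by 0.82 ± 0.17 (limma, adjusted p = 0.000801 and 0.00830). These comparisons share the AKFP, knockout or WT libraries with each other.

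AKFP organoids also differed in a gene that is not among the factors. *Pla2g2a*, a Paneth cell phospholipase whose gene is broken in some mouse strains, had 610 and 592 FPKM in AKFP organoids, 15.7 and 15.4 FPKM in AKF organoids, 14.6 and 11.5 FPKM in knockout organoids, and 9.17 and 8.17 FPKM in WT organoids. In tissue it had 1482 to 2477 FPKM in WT cells, 4723 and 87.9 FPKM in the day 4 Lgr5-high libraries, 3346 and 107 FPKM in the day 4 Lgr5-low libraries, and 371 and 109 FPKM at day 6. The labels give C57BL/6 throughout, and the part of whatever separates these libraries in the changes of the 9 genes was not tested. *Purb* had 19.5 and 16.5 FPKM in AKFP organoids, against 14.3 and 17.1 FPKM in knockout organoids, which overlap.

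*Ly6a* is also induced by interferon, so 21 interferon-response genes were followed beside it. They summed to 481 to 674 FPKM at day 6 and 272 to 453 FPKM at day 4, against 51.6 to 77.6 FPKM in WT cells. Of the 21, 16 were higher at day 6 than in WT Lgr5-high and 14 than in WT Lgr5-low cells, against 10.1% and 6.22% of all genes. The ubiquitin-like *Isg15* was up by 5.09 ± 0.50 over WT Lgr5-low and the antiviral membrane protein *Bst2* by 3.13 ± 0.23 (limma, adjusted p = 0.00157 and 0.000685). At day 4, 7 were called higher in Lgr5-high and 4 in Lgr5-low cells, against 0.729% and 0.279% of all genes. None of the 9 fetal-like genes was called, although *Ly6a* was above its WT libraries in each day 4 library. Whether the interferon and fetal-like genes differed in timing was not tested. Without day 4 Lgr5-high library 1 the count of 7 became 1.

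The same genes were set beside *Ly6a* in organoids. In knockout organoids the 21 genes summed to 304 to 442 FPKM, against 50.1 to 52.3 FPKM in WT organoids. All 19 that could be tested were higher, against 16.7% of all genes. In AKFP organoids the 21 summed to 83.8 to 96.5 FPKM, and 17 of the 19 were lower than in knockout organoids, against 13.2% of all genes. *Isg15* was lower by -3.17 ± 0.21 and *Irf7*, a transcription factor of the response, by -2.39 ± 0.14 (limma, adjusted p = 0.000383 and 0.000256). *Ly6a* had 95.67 and 96.84 FPKM in AKFP organoids, against 53.94 and 112.67 FPKM in knockout organoids, a difference of 0.30 ± 0.38 (limma, adjusted p = 0.575). Its level in AKFP organoids lay inside the range of the knockout pair. With 1 library left out at a time this difference ran between -0.23 and 0.82, and whether *Ly6a* and the interferon genes changed differently was not tested.

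**Figure D4:**
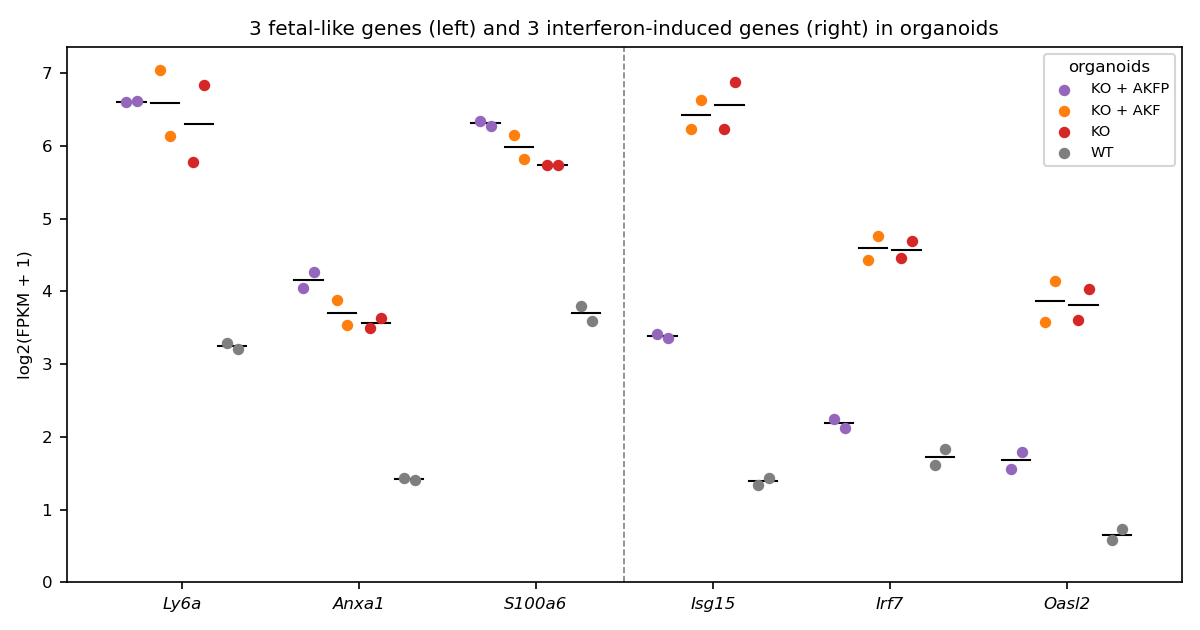
*Ly6a*, *Anxa1* and *S100a6* (left of the dashed line) and the interferon-induced *Isg15*, *Irf7* and *Oasl2* (right) in organoids, as log2(FPKM + 1), with points for the 2 libraries of each group and a line at their mean. In AKFP organoids (purple) the genes on the left are at or above their knockout level (red), and those on the right are below it. *Anxa1* and *S100a6* are the only 2 of the 9 genes called higher there. *Clu*, not shown, was called lower, and no other of the 9 was called.

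A list of 27 other genes of fetal-like or regenerating epithelium, 19 of them expressed enough to test in each table, moved largely with the 9. At day 6, 11 were higher and none lower than in WT Lgr5-low cells, where 6.22% of all genes were called higher and 5.25% lower. The median of the 19 was 1.35, against -0.08 over all genes. *Plaur*, the urokinase receptor, had 32.3 and 14.3 FPKM at day 6, against 0.71 and 0.50 FPKM in WT Lgr5-low cells (3.82 ± 0.35; limma, adjusted p = 0.00125). *Areg*, the EGF-family ligand amphiregulin, rose by 2.75 ± 0.31 and the tight-junction claudin *Cldn4* by 3.01 ± 0.37 (limma, adjusted p = 0.00222 and 0.00299). Without day 6 library 1, 7 of the 19 were called. At day 4 none of the 19 passed in limma in either gate. An unadjusted limma p under 0.05 was found for 5 in Lgr5-high and 8 in Lgr5-low cells, and for 16.9% and 13.7% of all genes.

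Against WT Lgr5-high cells, 12 of the 19 were higher at day 6 and 2 lower, where 10.1% of all genes were called higher and 11.9% lower. The 2 were *Cyr61*, a matrix protein and textbook YAP target (19.02 and 14.8 FPKM against 133 and 155 FPKM), and the peptide endothelin gene *Edn1*. Both are named here after their values were seen. *Cyr61* and *Edn1* differed by -1.94 and -1.85 on the log2 scale at day 4 in Lgr5-high cells, which did not pass (limma, adjusted p = 0.104 for each). Of 15 Hippo pathway genes, 14 were tested in tissue, and *Tead4*, a DNA-binding partner of YAP, was the one called against WT Lgr5-low (1.34 ± 0.23; limma, adjusted p = 0.00856). It had 1.96 and 1.39 FPKM at day 6, against 0.09 and 0.02 FPKM in WT Lgr5-low cells, and was not called without day 6 library 1.

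In knockout organoids 12 of the 19 other fetal-like genes were higher than in WT organoids and none lower, where 16.7% of all genes were called higher and 11.5% lower. The 12 were led by *Cldn4* (1.71 ± 0.07), *Plaur* (2.07 ± 0.10) and *Areg* (1.66 ± 0.10; limma, adjusted p = 0.000154, 0.000220 and 0.000373). In AKFP against knockout organoids 10 of the 19 were lower and 1 higher, unlike the mixed change of the 9. Of all genes 13.2% were called lower there and 13.2% higher. *Cyr61* was lower by -1.02 ± 0.09 and *Edn1* by -1.20 ± 0.13, and the EGF-family ligand *Ereg* was higher by 2.28 ± 0.15 (limma, adjusted p = 0.00102, 0.00187 and 0.000327). *Ereg* had 4.29 and 5.34 FPKM in AKFP organoids, against 0.31 and 0.09 FPKM in knockout organoids. Whether the 19 and the 9 differed in this change was not tested.

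The relatives of the 9 genes within their own families did not all follow. Among 6 other annexins tested in tissue none passed in limma at day 6 against WT Lgr5-low, with an unadjusted p under 0.05 for 3, as for 26.9% of all genes, and *Anxa5* came closest (1.70 ± 0.51; limma, adjusted p = 0.0679). In knockout organoids *Anxa5* was the one of 7 that rose (1.23 ± 0.08; limma, adjusted p = 0.000373). Of 7 other S100 genes tested in tissue, *S100a11* (2.66 ± 0.42) and *S100a14* (2.85 ± 0.46) were higher at day 6 than in WT Lgr5-low cells (limma, adjusted p = 0.00642 and 0.00683). All 7 were higher than in WT Lgr5-high cells. Of all genes, 6.22% were called higher than WT Lgr5-low and 10.1% than WT Lgr5-high. *S100a11* and *S100a14* were also higher in knockout organoids, by 0.81 ± 0.12 and 0.92 ± 0.16.

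Around *Ly6a* itself, *Ly6d*, a surface protein of squamous epithelium and lymphoid cells, had 12.8 and 2.34 FPKM at day 6, against 0.10 and 0 FPKM in WT Lgr5-low cells (2.69 ± 0.53; limma, adjusted p = 0.0145). In knockout organoids 6 of the 7 other Ly6-type genes tested were higher, against 16.7% of all genes. The 6 were led by *Ly6g* (2.00 ± 0.14) and *Lypd8*, a gut-secreted relative that binds flagellated bacteria (1.54 ± 0.13; limma, adjusted p = 0.000381 and 0.000674). Ly6 genes lie side by side and resemble each other, and how fragments shared between them were assigned is not given. Of 5 other keratins, *Krt7* was higher at day 6 than in WT Lgr5-low cells (1.35 ± 0.21; limma, adjusted p = 0.00613) and in knockout organoids (0.50 ± 0.07; limma, adjusted p = 0.00353), unlike *Krt19*. *Krt23* rose in both as well, by 1.72 ± 0.38 and 0.65 ± 0.09.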

How the data were processed

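RNA-seq libraries of sorted crypt cells (12) and organoids (8) were used. The authors deposited FPKM per gene for tissue, per the file headers; the organoid header names no unit, and its values were taken as FPKM because rows, format and range match. The build mm10 and the tools StringTie 1.3.3b and HISAT2 2.1.0 are named in the submitters' processing notes, with no roles. Identifiers were matched to GENCODE M21. Mapped fragment counts are not given; depth was estimated from value steps.

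Differences are of log2(FPKM + 1), which understates changes of low genes. Genes at 1 FPKM or more in at least 2 libraries of a fit were tested with limma 3.58.1 (R 4.3.3; lmFit, eBayes with trend), tissue (10 libraries, day 3 left out) and organoids (8) apart, with 1 mean for each group, two-sided, Benjamini-Hochberg over the whole table, with 0.05 as the limit of a call. Scripts were tested on simulated data. Nothing in the labels says that replicates are separate animals or cultures, so p-values measure only the spread between these libraries, which may be technical. The 9 genes and all lists were chosen with earlier results of these data known. Of each other list, up to 3 genes with the smallest p in a comparison were named. Alternatives were a pseudocount of 0.1, no filter, 2 other scalings, a replicate block, only the compared groups, and leaving out each library. Strand use in counting is not given.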

Additional observations from a re-analysis of the deposited data

Results flagged for a closer look

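*Krt19* differences had opposite signs in day 4 Lgr5-low cells and in knockout organoids, with neither called. Tissue held no single sign: day 6 over WT Lgr5-high ran between 0.18 and 0.87 with 1 library left out at a time. Both day 4 Lgr5-low libraries were below both WT Lgr5-low libraries, a difference of -0.75 on the log2(FPKM + 1) scale, while both knockout organoid libraries were above both WT organoid libraries, a difference of 0.10. The adjusted limma p was 0.412 and 0.538, and the difference between them was not tested, since tissue and organoids were fitted apart. With equal FPKM sums the organoid value became -0.0086.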

How the results depend on the processing

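Of 117 differences of the 9 genes, 40 were called, some of them of genes that entered the test only through the higher group. The shares over all genes are given with each comparison above. None of the 40 reversed under any alternative tried, but calls were lost. Among alternatives other than leaving out 1 library, the call was lost in 32 cases and kept in 208. All 7 organoid calls of knockout over WT passed throughout. Counts of the 9 genes called moved as follows. At day 4 in Lgr5-high cells, a pseudocount of 0.1 gave 1 (*Ly6a*, 4.57; limma, adjusted p = 0.0380) in place of 0. For day 6 over day 4 Lgr5-high, no filter gave 2 and only the compared groups 0, in place of 5. For day 6 over day 4 Lgr5-low, a pseudocount of 0.1, no filter, median-of-ratios scaling and only the compared groups each gave 0 in place of 2. For WT Lgr5-high over WT Lgr5-low, only the compared groups gave 3 in place of 0. Without the filter, AKFP over knockout organoids gave 1 and AKFP over AKF gave 0, in place of 3 each.

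Leaving out 1 library at a time gave 1 to 7 genes for day 6 over day 4 Lgr5-high, 0 to 6 for day 6 over day 4 Lgr5-low, 6 to 8 for day 6 over WT Lgr5-high, 4 to 8 for day 6 over WT Lgr5-low, 0 to 3 for AKFP over knockout and 0 to 4 for AKFP over AKF organoids. For day 6 over day 4 Lgr5-high the lowest count, 1, was without day 4 Lgr5-high library 1, and for day 6 over day 4 Lgr5-low the highest, 6, was without day 6 library 2. For AKFP over knockout, 0 genes were called without either knockout library or without AKFP library 2.

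Reversals were all of uncalled differences. With a pseudocount of 0.1 the difference between gates in the day 4 change became 0.31 for *Anxa3* and 0.68 for *Ly6a*. With equal FPKM sums it became 0.12 for *Ly6a*, *Clu* at day 4 in Lgr5-high cells became -0.0083, *Krt19* in knockout organoids -0.0086 and *Anxa2* in AKFP over AKF organoids 0.019. With median-of-ratios scaling *Anxa2* in AKFP over knockout organoids became -0.0032. Leaving out 1 library at a time gave values on both sides of 0. For WT Lgr5-high over WT Lgr5-low they ran between -0.064 and 0.050 for *Anxa1* and between -0.18 and 0.012 for *Anxa10*. For the difference between gates at day 4 they ran between -1.10 and 0.89 for *Ly6a*, -0.054 and 0.82 for *Krt19*, -0.45 and 0.20 for *Anxa3*, -0.031 and 0.75 for *Anxa2*, and -0.57 and 0.085 for *Anxa1*. At day 4 they ran between -0.80 and 0.071 for *Krt19* and -0.012 and 0.056 for *Anxa10* in Lgr5-high cells, and -0.29 and 0.49 for *Anxa2* in Lgr5-low cells. For day 6 over WT Lgr5-low *Krt19* ran between -0.69 and 0.00078. For AKF over knockout organoids they ran between -0.25 and 0.80 for *Ly6a*, -0.073 and 0.21 for *Krt19*, -0.030 and 0.31 for *Anxa1*, and -0.0019 and 0.24 for *Anxa2*. For AKFP over knockout they ran between -0.043 and 0.070 for *Anxa2* and -0.23 and 0.82 for *Ly6a*, and for AKFP over AKF between -0.23 and 0.015 for *Anxa2* and -0.43 and 0.47 for *Ly6a*.

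Equal FPKM sums moved the median of all genes at day 6 over WT Lgr5-high to -0.51, against -0.16 as reported, and the share of calls that were higher to 29.1%, against 45.9%, and 57.1% with median-of-ratios scaling. Over WT Lgr5-low the share was 38.1% with equal sums, against 54.2%. Over day 4 Lgr5-high it was 71.7% with equal sums and 73.7% with median-of-ratios scaling, against 61.6%. For day 4 Lgr5-high over WT it was 57.4% with median-of-ratios scaling, against 69.1%. With equal sums it was 41.6% in knockout organoids, against 59.1%, 69.0% in AKFP over knockout, against 49.9%, and 68.3% in AKFP over AKF organoids, against 50.2%.

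Replicate numbers are shared by the groups, but the labels do not say what a number marks. Deviations of same-numbered libraries correlated between 0.024 and 0.520 in tissue and between -0.039 and 0.091 in organoids. With the replicate number as a block, the 9 genes gave 8 calls for day 6 over WT Lgr5-high (7 without it), 7 over WT Lgr5-low (6), 2 for AKFP over knockout (3) and 4 for AKFP over AKF organoids (3), and the same count in each other comparison. With it *Clu* was called over WT Lgr5-high and *Anxa1* over WT Lgr5-low at day 6, *S100a6* and *Krt19* were called in AKFP over AKF organoids, and the calls of *Clu* in AKFP over knockout and of *Anxa1* in AKFP over AKF organoids were lost. The depth behind each FPKM value is only estimated, so no counting interval is given.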
